A study of Sus scrofa with 12 samples.

Results

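Genes of ribosome biogenesis and the nucleolus were examined in porcine in vitro fertilised embryos profiled by SMART-seq, which turns the polyadenylated RNA of small cell numbers into amplified full-length cDNA. The members were the genes of a list of 60 symbols covering the proteins that modify, fold and cut ribosomal RNA and build the ribosomal subunits, and they were found by an exact match of the symbol in the count table. Of the 60, 57 were found among the 29329 genes of the table, and all 57 passed the filter on low counts, which left 17995 genes for testing. NHP2, RIOK2 and DDX10 were not analysed here. The 57 were divided into 8 roles. They were 3 box C/D proteins, 3 box H/ACA proteins, 3 rRNA-modifying enzymes, 4 nucleolar phosphoproteins and chaperones, 6 t-UTP proteins, 16 other proteins of the small subunit (SSU) processome, 6 late 40S factors and 16 60S assembly factors.

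A ribosome is built in the nucleolus, where RNA polymerase I copies the ribosomal DNA into a long precursor RNA. Small nucleolar RNAs (snoRNAs) guide the modification of that RNA, box C/D particles adding methyl groups and box H/ACA particles making pseudouridine, while the SSU processome folds and cuts the part that becomes the 40S subunit and other factors assemble the 60S subunit. The oocyte supplies ribosomes and mRNAs to the embryo, and the nucleolus of an early embryo becomes active in rRNA synthesis around the activation of the zygotic genome.

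The 12 libraries formed 4 groups of 3, named here by their titles. Control libraries were con-2c or con-4c, and knockdown libraries si-2c or si-4c. The con groups were controls, called blank control, normal or negative control (NC) in different places. The si groups were embryos injected with si-CCNB2, a short interfering RNA that targets cyclin B2 (CCNB2), which promotes entry into mitosis. Each library was a pool of several in vitro fertilised embryos, and the sets of embryos were collected apart, although nothing in the sources says that they came from separate fertilisations, so a p-value measures the spread between sets of embryos. The sources do not settle whether the control embryos were injected, and a difference between si and con libraries can include the injection. Title and tissue label gave different stages in all 12 libraries, the titles ending in 2c standing beside a label of 4-cell embryos and those ending in 4c beside one of 2-cell embryos. The group names therefore stand for titles only, and reading the tissue label instead would turn the sign of each difference between stages.

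Library totals were 27785233 to 39510908 counts, and 18034 to 23279 genes had at least 1 count. Levels are given as CPM, counts scaled to library size, and group values as mean ± SD with n = 3. CCNB2 mRNA, the target of the knockdown, was at 464 ± 21.7 CPM (con-2c) and 475 ± 41.9 (con-4c) in controls, and at 22.7 ± 5.58 (si-2c) and 42.6 ± 3.65 (si-4c) in the si groups. By title, each si group lay closer to the control group of the other stage, since 60 of 17995 genes were called between si-4c and con-2c, 322 between con-4c and si-2c, 2242 between con-2c and si-2c, and 3414 between con-4c and si-4c. Whether the titles of the si groups were exchanged cannot be told from the files, since CCNB2 was low in both. If they were, si-2c and si-4c would trade places in each value below that uses them. Other assays of the study on si-CCNB2 embryos were not used here. Every comparison is therefore given separately. Summed markers of oocytes and early embryos (11 of 13 listed genes in the table) were 19512 to 24625 CPM (con-2c), 9754 to 10621 (con-4c), 10036 to 11761 (si-2c) and 22595 to 24763 (si-4c). Most of each sum was BTG4, at group means of 18571, 7682, 7897 and 19671 CPM, and the other genes did not all move with it, since PADI6 differed by -0.07 between con-4c and con-2c (adjusted p = 0.645) and BMP15 was higher in si-2c than in con-2c by 0.47 (adjusted p = 8.55e-05). The study named EIF1A, DPPA2 and ZSCAN4 as markers of zygotic genome activation. ZSCAN4 was not analysed here, and EIF1AX, the row taken for EIF1A, and DPPA2 summed to 65.6 to 72.7, 327 to 366, 172 to 183 and 73.7 to 89.2 CPM in the same order. The 12 cumulus and granulosa markers in the table summed to 6.57 to 9.32, 15.2 to 17.2, 13.7 to 15.8 and 8.16 to 9.27 CPM, so this sum too was higher in con-4c and si-2c, with CYP11A1, FOXL2, HAS2 and LHCGR at or near 0. Most of it came from FST and from NR5A2, which was 5.57 higher in con-4c than in con-2c on the log2 scale (adjusted p = 4.58e-06). GJA1 and PTX3, at most 0.604 CPM in group mean, were called higher in si-2c than in con-2c, and GJA1 also in con-4c. Sperm and blood markers summed to at most 7.81 and 24.2 CPM, mostly from SPACA3 and PECAM1, both of them lower in con-4c and si-2c than in con-2c at an adjusted p below 0.05. AKAP4, PTPRC, CD14 and CD68 of these lists, at most 1.41 CPM in group mean, were called both between the control groups, with con-4c the higher, and between the groups titled 4c, with si-4c the lower. AKAP4 was also called between the groups titled 2c, with si-2c the higher. The part of all these markers in the results on the members was not tested.

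A member was called where the adjusted p of edgeR's quasi-likelihood test was below 0.05 and the log2 difference at least 1 in size, the thresholds used by the study. In the control comparison, which sets con-4c against con-2c, 11 members were called higher and 1 was called lower, 19.3% and 1.75% of the 57. Over all 17995 genes tested, 14.4% were called higher and 3.25% lower. The members higher in con-4c were FBL, EMG1, NOP2, UTP3, IMP3, IMP4, RRP9, RRP12, BOP1, PPAN and NOP16, and the member lower was GAR1. The median log2 difference over the 57 was 0.34, beside 0.11 over all genes. Without the minimum size, 22 members (38.6%) were higher and 6 (10.5%) lower at the same adjusted p, beside 20.7% and 15.1% of all genes. The libraries of con-4c and con-2c did not overlap for 34 members, 28 of them higher in con-4c. Of all genes, 48.6% did not overlap in either direction, a share not split by direction here. Genes of low level were called more often in the whole table, so the members were also divided by their mean over the 12 libraries. Of the 16 members under 10 CPM, 6 were called higher, beside 18.3% of all such genes, and of the 41 members at or above 10 CPM, 5 were called higher, beside 6.95%.

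In the 2c comparison, which sets si-2c beside con-2c, 7 members were called higher and 2 lower, where 10.7% and 1.8% of all genes were called. The 7 were FBL, EMG1, NOP2, IMP3, IMP4, RRP9 and RRP12, and those lower were GAR1 and UTP4. At 12.3% the share higher was near the background, and the median difference of the members was 0.02 beside 0.12 over all genes. At the adjusted p alone, 12 members were higher and 11 lower, beside 16.6% and 12.3% of all genes. The libraries did not overlap for 26 members, 13 in each direction, against 41.7% of all genes. In the 4c comparison, which sets si-4c beside con-4c, 2 members were called higher, GAR1 and UTP18, and 11 were called lower, namely FBL, EMG1, NOP2, IMP3, IMP4, RRP12, BOP1, PPAN, NOP16, NOP53 and RRP1. Of all genes, 3.12% were called higher and 15.8% lower in that comparison, beside 3.51% and 19.3% of the members. At the adjusted p alone, 8 members were higher, beside 15.1% of all genes, and 22 lower, beside 21.7%. The median of the members was -0.27 and that of all genes -0.11, and the libraries of the groups did not overlap for 37 members against 50.9% of all genes. The 2c comparison shares its con-2c libraries with the control comparison and the 4c comparison shares con-4c, so the 3 sets of calls are not independent. In these bulk libraries, fewer active cells and less RNA per cell cannot be told apart.

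**Figure D1:**
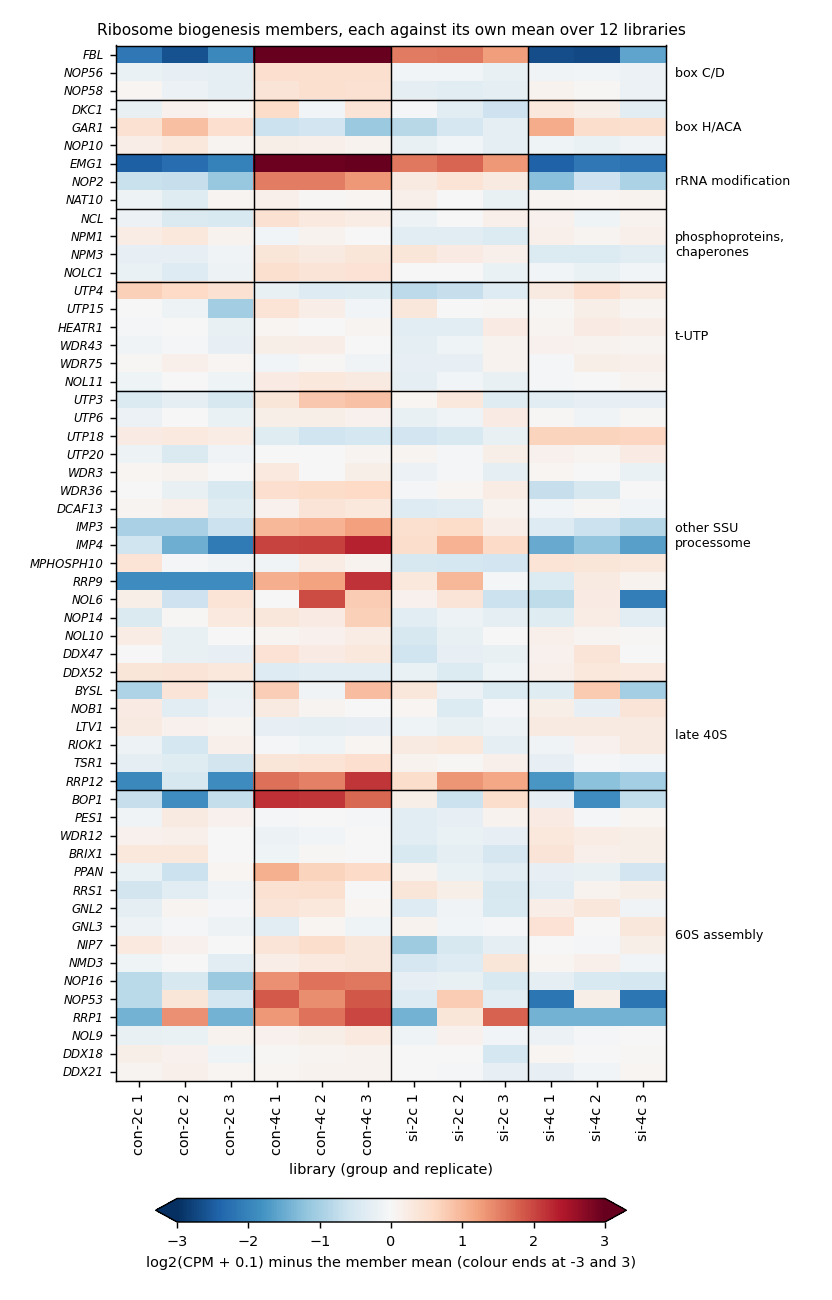
Level of each of the 57 members (rows, by role) in each of the 12 libraries (columns), as log2(CPM + 0.1) minus the member's mean over the libraries, with colour ending at -3 and 3. FBL, EMG1, NOP2, IMP4 and RRP12 are red in con-4c, paler red in si-2c and blue in con-2c and si-4c, while most rows stay near white.

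The size of the difference varied widely within single complexes. Fibrillarin (FBL, chr6:48314782-48326433 in the Sscrofa11.1 build, from the RefSeq annotation) is the methyltransferase of the box C/D particles. It was at 0.891, 0.624 and 1.05 CPM (con-2c), 35.5, 38.6 and 38.1 (con-4c), 12.9, 13.1 and 10.5 (si-2c) and 0.6, 0.578 and 1.37 (si-4c). The con-2c and si-4c libraries interleaved, every si-2c library lay above both, and every con-4c library lay above si-2c. The con-4c level was 43.7-fold that of con-2c, a log2 difference of 5.45 ± 0.26 (SE, adjusted p = 4.78e-11), and si-2c exceeded con-2c by 3.83 ± 0.25 (adjusted p = 5.85e-09). In si-4c FBL fell by 5.46 ± 0.26 from its con-4c level (adjusted p = 4.33e-11).

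NOP56 and NOP58, the scaffold proteins that sit with FBL in every box C/D particle, moved far less. NOP56 (chr17:32960099-32965396) was at 139, 134 and 131 CPM (con-2c), 228, 224 and 223 (con-4c), 151, 152 and 138 (si-2c) and 149, 151 and 141 (si-4c). The con-4c libraries stood above all the other 9. The difference of con-4c from con-2c was 0.74 ± 0.07 (adjusted p = 3.22e-07), under the minimum of 1 but 1.01 and called with library totals. That of si-2c from con-2c was 0.13 ± 0.07 (adjusted p = 0.199), and 0.52 with library totals (adjusted p = 3.27e-05). For NOP58 (chr15:105893589-105930458) the libraries read 96.8, 82.6 and 76.1 CPM (con-2c), 121, 130 and 127 (con-4c), 76.3, 72.7 and 76.6 (si-2c) and 100, 95.1 and 82.7 (si-4c). It too was highest in con-4c, by 0.57 ± 0.10 over con-2c (adjusted p = 0.000166), and si-2c overlapped con-2c.

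Among the box H/ACA proteins, GAR1 went the other way from most called members. GAR1 (chr8:112401114-112414277), a core protein of the pseudouridine-making particle, was at 7.45, 10.2 and 7.72 CPM (con-2c), 3.42, 3.61 and 2.47 (con-4c), 3, 3.78 and 4.48 (si-2c) and 11.9, 7.92 and 7.65 (si-4c). No con-4c or si-2c library reached the lowest library of con-2c or si-4c. It fell by 1.41 ± 0.24 in the control comparison (adjusted p = 0.000157) and by 1.17 ± 0.23 in the 2c comparison (adjusted p = 0.000993), and it rose by 1.53 ± 0.24 in the 4c comparison (adjusted p = 7.12e-05). With libraries scaled to their totals alone, the si-2c difference was -0.76 and no longer called.

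DKC1, the pseudouridine synthase of the same particle, was at 7.61 ± 0.983 CPM (con-2c), 9.63 ± 2.08 (con-4c), 6.2 ± 1.25 (si-2c) and then 8.06 ± 1.85 (si-4c), with 4.98 and 11.3 CPM as its lowest and highest libraries. Its groups overlapped, and the con-4c difference was 0.34 ± 0.22 (adjusted p = 0.252), or 0.61 with library totals (adjusted p = 0.0414). NOP10, a small protein of the same core, was at 474, 517 and 439 CPM (con-2c), 469, 466 and 449 (con-4c), 359, 392 and 338 (si-2c) and 382, 363 and 388 (si-4c). Both si groups lay under both control groups without overlap, by 0.39 ± 0.08 under the title 2c (adjusted p = 0.00107) and 0.29 ± 0.08 under the title 4c (adjusted p = 0.00837), and neither difference reached the minimum of 1. With library totals the difference under the title 2c was 0.00 (adjusted p = 0.968) and that under the title 4c was -0.55. Within the control groups NOP10 differed by -0.05 ± 0.08 (adjusted p = 0.688), and by 0.23 with library totals (adjusted p = 0.0147).

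Of the 3 rRNA-modifying enzymes, EMG1 and NOP2 changed and NAT10 was not called. EMG1 (chr5:63746326-63751469), which methylates a pseudouridine of 18S rRNA, was at 2.42, 2.73 and 3.29 CPM (con-2c), 106, 106 and 116 (con-4c), 41.3, 46.2 and 33.9 (si-2c) and 2.49, 3.01 and 2.87 (si-4c). The order of the groups was that of FBL, with con-2c and si-4c alike in range. Its con-4c level was 38.8-fold that of con-2c, 5.28 ± 0.15 on the log2 scale (adjusted p = 1.21e-13), and its si-2c level was 14.3-fold (3.84 ± 0.14, adjusted p = 4.68e-12).

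NOP2 (chr5:64106013-64115582), a cytosine methyltransferase of 28S rRNA, was at 1.91, 1.87 and 1.35 CPM (con-2c), 9.15, 9.05 and 7.74 (con-4c), 3.7, 4.1 and 3.71 (si-2c) and 1.23, 1.97 and 1.55 (si-4c). Each con-4c library stood above each si-2c library, and these above the rest. The differences were 2.33 ± 0.23 in the control comparison (adjusted p = 6.23e-07) and 1.16 ± 0.23 in the 2c comparison (adjusted p = 0.00105). NAT10, the acetyltransferase of 18S rRNA, was at 393 ± 60.4 CPM (con-2c), 456 ± 18.1 (con-4c), 426 ± 55.2 (si-2c) and then 455 ± 8.68 (si-4c). Its libraries ran from 336 to 476 CPM with overlap between all groups, and the con-4c difference was 0.21 ± 0.11 (adjusted p = 0.13). With library totals it was 0.48 (adjusted p = 0.00576), and the difference of si-2c from con-2c was 0.50 (adjusted p = 0.00432).

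**Figure D2:**
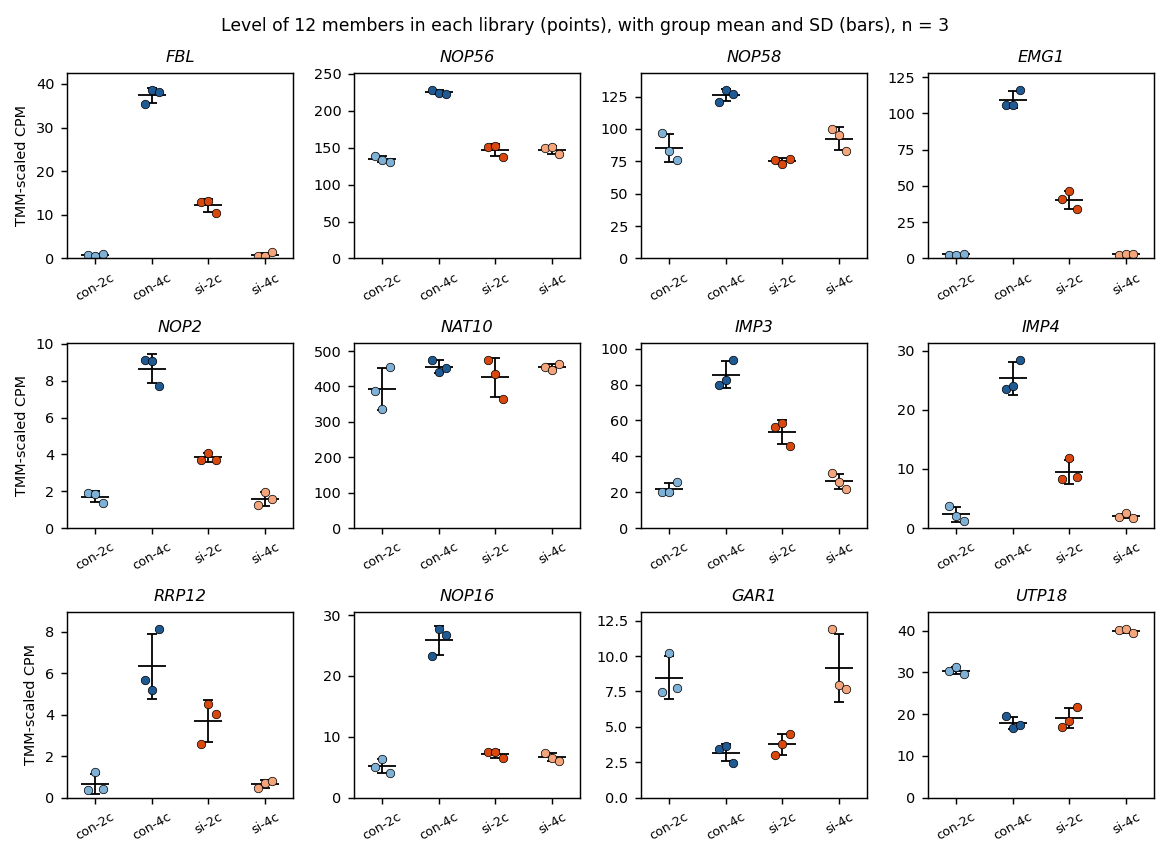
TMM-scaled CPM of 12 members in each library (points), with the mean (long bar) and SD (short bars) of the 3 libraries of each group; each panel has its own axis, starting at 0. FBL and EMG1 reach 37.4 ± 1.63 and 109 ± 6.01 CPM in con-4c and stay at or below 3.29 CPM in every con-2c and si-4c library, while NAT10 overlaps between all 4 groups and GAR1 and UTP18 are low in con-4c and si-2c.

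None of the 4 nucleolar phosphoproteins and chaperones was called in the control comparison, although NCL, NPM3 and NOLC1 were higher at an adjusted p below 0.05. The edgeR count of 0 stands beside 3 higher and 1 lower at an unadjusted p under 0.05 and 0 calls by DESeq2, where 25.7% of all genes were higher and 18.4% lower at that unadjusted p. Nucleolin (NCL), an abundant protein that binds nascent pre-rRNA, was at 196, 164 and 162 CPM (con-2c), 305, 270 and 260 (con-4c), 200, 219 and 245 (si-2c) and 242, 204 and 239 (si-4c). The con-4c libraries were the highest, by 0.68 ± 0.10 over con-2c (adjusted p = 5.68e-05), and both si groups lay between the controls. NOLC1, a snoRNP chaperone, was also highest in con-4c, with 190 ± 15.7 CPM (con-2c), 303 ± 7.98 (con-4c), 214 ± 16.6 (si-2c) and then 206 ± 9.25 (si-4c), and its si libraries overlapped those of con-2c. The con-4c difference was 0.67 ± 0.08 (adjusted p = 5.98e-06).

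For NPM3, a relative of nucleophosmin, the si-2c libraries overlapped those of con-4c. Its libraries were at 35.3, 35.2 and 38.9 CPM (con-2c), 53.6, 50.7 and 53.9 (con-4c), 53.8, 49.8 and 46.2 (si-2c) and 31.6, 31.4 and 33.5 (si-4c). The difference of si-2c from con-4c was -0.08 ± 0.09 (adjusted p = 0.746), and si-4c was under con-4c by 0.71 ± 0.09 (adjusted p = 6.8e-06). Nucleophosmin (NPM1, chr16:52767263-52781862), the histone and ribosome chaperone of the outer nucleolus, was among the members with the most counts, at 2847, 3059 and 2615 CPM (con-2c), 2304, 2638 and 2466 (con-4c), 1960, 1934 and 1841 (si-2c) and 2728, 2578 and 2725 (si-4c). Its si-2c libraries lay under all others, by 0.57 ± 0.08 against con-2c (adjusted p = 2.42e-05), which shrank to 0.17 with library totals (adjusted p = 0.0359). Between the control groups NPM1 differed by -0.20 (adjusted p = 0.0492, and 0.00809 to 0.383 over the alternatives), and by 0.07 with library totals. Reads from near-identical copies of NPM1 elsewhere in the genome may be counted here or lost.

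The t-UTP proteins join the pre-rRNA early and are needed for its transcription. In the control comparison none of the 6 was called (3 higher and 1 lower at an unadjusted p under 0.05, 0 by DESeq2), and their differences from con-2c ran from -0.91 to 0.52. UTP4 (chr6:17784908-17818417) marked the lower end, at 71, 64.9 and 59.1 CPM (con-2c), 36.9, 33.2 and 33.6 (con-4c), 25, 26.8 and 33 (si-2c) and 52, 61.6 and 52.6 (si-4c). Its con-4c and si-2c libraries were all under its con-2c and si-4c libraries. UTP4 fell by 1.20 ± 0.11 in the 2c comparison (adjusted p = 5.78e-07), a difference of -0.80 and not called with library totals, and differed by -0.91 ± 0.11 in the control comparison (adjusted p = 7.65e-06).

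NOL11 was slightly higher in con-4c, with 27.5, 30.5 and 27.9 CPM (con-2c), 35.8, 37.9 and 36.4 (con-4c), 24.8, 28.6 and 26 (si-2c) and 28.9, 30.4 and 32 (si-4c). Its con-4c libraries stood above all others, by 0.36 ± 0.10 over con-2c (adjusted p = 0.00697) and by 0.63 with library totals. HEATR1, another t-UTP protein, was at 92.2 ± 8.3, 101 ± 3.09, 90.3 ± 22.4 and 110 ± 6.73 CPM across con-2c, con-4c, si-2c, then si-4c. Replicate 3 of si-2c read 116 CPM while the other two read 76.8 and 78.1. WDR75 was at 311 ± 14.9, 284 ± 14.1, 270 ± 40.9 and 314 ± 24.2 CPM in the same order, and its si-2c replicate 3, at 317 CPM, was likewise above the other two, both at 246. In the main fit neither gene passed the test in any of the 3 comparisons described so far. With library totals HEATR1 was at 0.40 in the control comparison (adjusted p = 0.0308) and 0.38 in the 2c comparison (adjusted p = 0.0401). For WDR75 the adjusted p of the 2c comparison was 0.00488 to 0.392 over the alternatives. UTP15 and WDR43 were not called in the 3 comparisons either, with group means of 4.33 to 6.22 and 142 to 169 CPM.

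Among the other SSU processome proteins 4 of 16 (25%) were called higher in con-4c, beside 14.4% of all genes, and IMP3 and IMP4 had the smallest p. The pair binds the U3 snoRNA together with MPHOSPH10, and U3 pairs with the pre-rRNA so that it can be cut. IMP3 (chr7:58023368-58024496) was at 20.2, 20.3 and 25.4 CPM (con-2c), 79.7, 82.7 and 93.9 (con-4c), 56.2, 58.4 and 45.8 (si-2c) and 30.6, 25.4 and 22 (si-4c). IMP4 (chr15:31970179-31975158) was at 3.72, 1.99 and 1.23 CPM (con-2c), 23.5, 24 and 28.5 (con-4c), 8.21, 11.9 and 8.56 (si-2c) and 1.92, 2.46 and 1.76 (si-4c). For both genes con-4c stood above si-2c and si-2c above the overlapping con-2c and si-4c. IMP3 rose by 1.96 ± 0.14 (adjusted p = 6.69e-09) and IMP4 by 3.46 ± 0.29 (adjusted p = 7.53e-08) in the control comparison, and by 1.28 ± 0.13 (adjusted p = 1.63e-06) and 2.05 ± 0.28 (adjusted p = 3.3e-05) in the 2c comparison.

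MPHOSPH10, the other protein of that complex and named after its values were seen, did not share this pattern. It was at 31.3, 22.8 and 22 CPM (con-2c), 22, 27.3 and 25.5 (con-4c), 16.9, 16.3 and 15.7 (si-2c) and 31.3, 30.2 and 29.4 (si-4c). The control groups overlapped (-0.03 ± 0.13, adjusted p = 0.909), and the si-2c libraries were under all others, by 0.64 ± 0.13 against con-2c (adjusted p = 0.0014). With library totals that difference was -0.24 (adjusted p = 0.163).

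RRP9, a protein of the U3 particle, was counted in few reads. Summed over the 3 libraries of a group it had 0 counts (con-2c), 92 (con-4c), 51 (si-2c) and then 28 (si-4c). Against the 3 counts that a group total of 0 allows, it was at least 32.8-fold higher in con-4c, 13.3-fold in si-2c and 8.98-fold in si-4c, bounds that fell to as little as 21.5-, 8.7- and 5.89-fold when 1 library was left out. All 3 were called against con-2c, with adjusted p of 0.000178, 0.00106 and 0.0481.

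UTP18 and DDX52 were lower in con-4c and si-2c. UTP18 (chr12:27526180-27565177), a WD-repeat protein of the UTP-B complex, was at 30.3, 31.3 and 29.7 CPM (con-2c), 19.6, 16.8 and 17.5 (con-4c), 17, 18.4 and 21.8 (si-2c) and 40.1, 40.4 and 39.4 (si-4c). The si-4c libraries were the highest of the 12, and UTP18 rose by 1.16 ± 0.11 in the 4c comparison (adjusted p = 2.88e-07), although with library totals this became 0.90 and was not called. DDX52 (chr12:39072310-39095558), an RNA helicase of the 40S pathway, was at 128, 131 and 124 CPM (con-2c), 77, 79 and 78.6 (con-4c), 86.5, 75.5 and 91.1 (si-2c) and 112, 124 and 123 (si-4c). Its low and high groups did not overlap, and con-4c was under con-2c by 0.71 ± 0.08 (adjusted p = 2.96e-06), and by 0.44 with library totals.

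Of the remaining 10 SSU processome members only UTP3 was called between groups. UTP3, named after its values were seen, rose from 8.48 ± 0.621 CPM in con-2c to 18.3 ± 3.29 in con-4c (1.11 ± 0.18, adjusted p = 9.55e-05) and was at 11.4 ± 2.65 in si-2c and 9.27 ± 0.389 in si-4c. WDR36, chosen after its values were seen, was likewise highest in con-4c, at 24.7 ± 3.73, 42.1 ± 1.56, 30.5 ± 2.95 and 22.2 ± 5.53 CPM and was 0.77 ± 0.15 above con-2c in con-4c (adjusted p = 0.000693), or 1.05 and called with library totals. The other 8, UTP6, UTP20, WDR3, DCAF13, NOL6, NOP14, NOL10 and DDX47, were called in none of the comparisons between groups, with group means from 0.185 CPM for NOL6 to 154 CPM for UTP6.

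**Figure D3:**
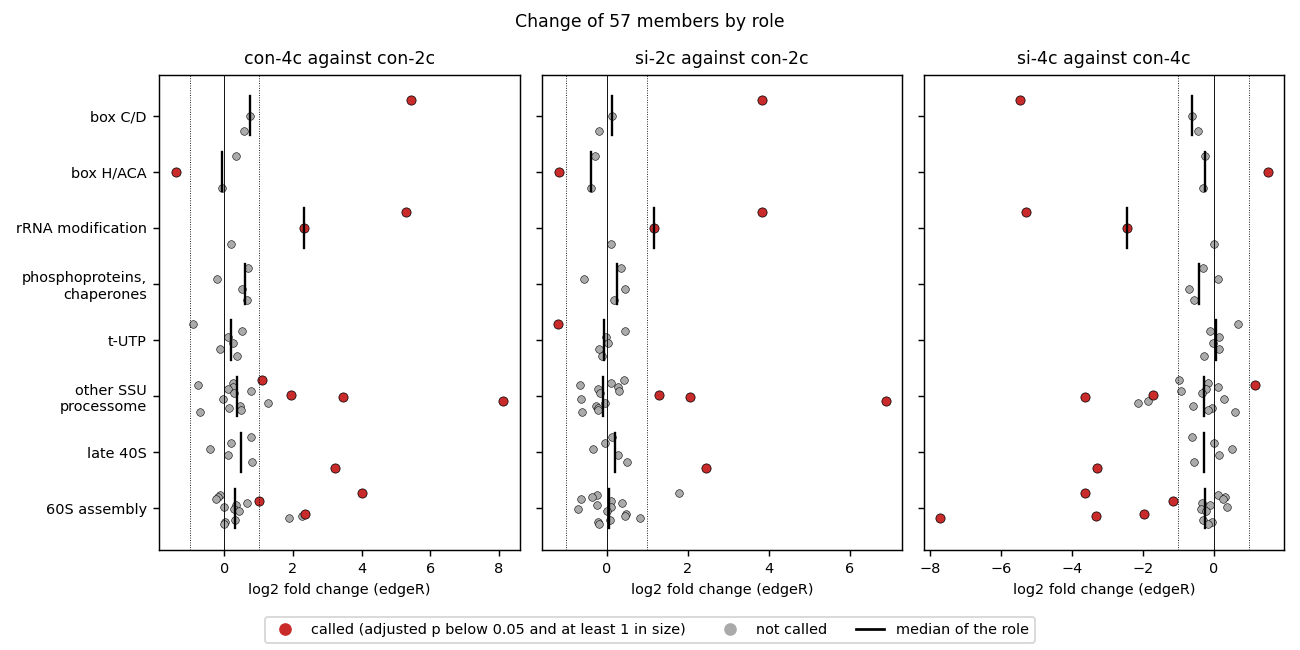
log2 difference of each of the 57 members (points, grouped by role on the vertical axis) in 3 comparisons; red points were called, grey points were not, the bar is the median of the role, and dotted lines mark -1 and 1. The box C/D and rRNA-modifying roles each hold a called member beyond 5 in the control comparison, while the t-UTP role stays between -0.91 and 0.52.

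RRP12 was the only one of the 6 late 40S members called in the control, 2c and 4c comparisons. RRP12 (chr14:108772172-108805513), which helps pre-ribosomes leave the nucleus, was at 0.382, 1.22 and 0.4 CPM (con-2c), 5.69, 5.2 and 8.13 (con-4c), 2.58, 4.5 and 4.01 (si-2c) and 0.45, 0.694 and 0.806 (si-4c). The control groups were 3.24 ± 0.41 apart (adjusted p = 9.65e-06), and si-2c exceeded con-2c by 2.46 ± 0.41 (adjusted p = 0.000206). Every si-2c library lay under every con-4c library, by 0.78 ± 0.36 (adjusted p = 0.25), a difference that did not pass the test.

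TSR1, a protein of late 40S particles, was at 43.6, 41 and 35.5 CPM (con-2c), 67.1, 70.1 and 74.1 (con-4c), 56.7, 53.6 and 57.9 (si-2c) and 44.4, 49.9 and 49.2 (si-4c). The 4 groups did not overlap. Its con-4c difference of 0.81 ± 0.09 (adjusted p = 2.71e-06) was under the minimum, and it was 1.09 and called with library totals. LTV1 (chr1:21406949-21430252), which is needed to mature the head of the 40S subunit, ran the other way at 1111, 1004 and 981 CPM (con-2c), 772, 771 and 780 (con-4c), 839, 790 and 829 (si-2c) and 1117, 1104 and 1111 (si-4c). Its control groups differed by -0.41 ± 0.07 (adjusted p = 0.000135), and by -0.14 with library totals (adjusted p = 0.124). BYSL, a nuclear 40S factor, ranged from 0.836 to 3.51 CPM with overlapping groups and a con-4c difference of 0.78 ± 0.47 (adjusted p = 0.219). NOB1, the endonuclease that makes the end of 18S rRNA, and the kinase RIOK1 had group means of 12.7 to 15.1 and 5.98 to 7.29 CPM and were not called.

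The 60S factors included a gene called in con-4c and not in si-2c. NOP16 (chr2:81488191-81498623), a nucleolar protein of early 60S particles, was at 5, 6.33 and 4.03 CPM (con-2c), 23.2, 27.7 and 26.8 (con-4c), 7.48, 7.55 and 6.48 (si-2c) and 7.32, 6.45 and 6.09 (si-4c). The con-4c libraries stood alone, and the si-2c libraries overlapped those of si-4c. NOP16 was 2.34 ± 0.17 higher in con-4c than in con-2c (adjusted p = 1.16e-08), while si-2c was 0.48 ± 0.17 above con-2c (adjusted p = 0.0386), under the minimum, and 0.89 above it with library totals. It fell by 1.97 ± 0.17 in the 4c comparison (adjusted p = 7.54e-08).

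PPAN (chr2:68958906-68962657), a 60S factor, was at 4.77, 3.48 and 5.66 CPM (con-2c), 11.5, 8.68 and 8.16 (con-4c), 5.92, 4.71 and 4.29 (si-2c) and 4.56, 4.63 and 3.61 (si-4c). As for NOP16, only con-4c stood above the others. The difference was 1.02 ± 0.22 (adjusted p = 0.00144), just past the minimum, and it was 0.85 without con-2c replicate 2 and 0.86 without con-4c replicate 1. PPAN fell by 1.14 ± 0.22 in the 4c comparison (adjusted p = 0.000591), and by 0.97 without con-4c replicate 1.

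BRIX1 and WDR12 were lowest in si-2c on the TMM scale. BRIX1 (chr16:20512281-20520579), an early 60S assembly factor, was at 1484, 1497 and 1184 CPM (con-2c), 1095, 1234 and 1179 (con-4c), 864, 993 and 839 (si-2c) and 1561, 1332 and 1348 (si-4c). All si-2c libraries were under all others, by 0.63 ± 0.10 against con-2c (adjusted p = 0.000148), and by 0.23 with library totals (adjusted p = 0.0217). WDR12 was at 94.2 ± 4.67, 82.6 ± 4.87, 73.3 ± 2.78 and 104 ± 5.46 CPM across con-2c, con-4c, si-2c, then si-4c, and si-2c was under con-2c by 0.36 ± 0.08 (adjusted p = 0.00213), a difference that was 0.04 with library totals (adjusted p = 0.749).

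WDR12 forms the PeBoW complex with BOP1 and PES1, both named here after their values were seen. BOP1 had 8, 128, 38 and 11 counts over the group (same order), a level of 0.0834 ± 0.0723, 1.4 ± 0.259, 0.293 ± 0.149 and 0.11 ± 0.105 CPM. It rose by 4.02 ± 1.09 in the control comparison (adjusted p = 0.00802) and fell by 3.64 ± 1.06 in the 4c comparison (adjusted p = 0.0123), with wide errors at this depth. PES1 was at 31.2 ± 3.95, 28.7 ± 0.273, 26.3 ± 4.5 and 31 ± 3.42 CPM, with a con-4c difference of -0.12 ± 0.13 (adjusted p = 0.528).

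NOP53 and RRP1, also chosen after their values were seen, were called lower in the 4c comparison on few counts. NOP53 was at 1.38 ± 0.247 CPM in con-4c and 0.135 ± 0.234 in si-4c, where 2 of 3 libraries had 0 counts, and its adjusted p of 0.0247 became 0.0648 to 0.0668 when con-4c replicate 1, con-4c replicate 3, si-4c replicate 1 or si-4c replicate 3 was left out. RRP1 had 20 counts (con-2c, all in 1 library), 69 (con-4c), 47 (si-2c) and 0 (si-4c), so in the 4c comparison it was at least 25.5-fold lower (16.8-fold without si-4c replicate 2, adjusted p = 0.0193, and 0.0502 to 0.0518 without any 1 si-4c library). The remaining 8 members of the 60S role, RRS1, GNL2, GNL3, NIP7, NMD3, NOL9, DDX18 and DDX21, were called in no comparison between groups, with group means from 5.03 CPM for RRS1 to 2405 CPM for the RNA helicase DDX18. The nucleolar helicase DDX21, chosen after its values were seen, was at 722 ± 20.2 and 719 ± 13 CPM in the control groups and 627 ± 53.8 and 637 ± 67.6 CPM in the si groups. Its difference was -0.20 in the 2c comparison (adjusted p = 0.0832) and -0.17 in the 4c comparison (adjusted p = 0.122). With library totals these were 0.19 (adjusted p = 0.0979) and -0.43 (adjusted p = 0.00099).

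**Figure D4:**
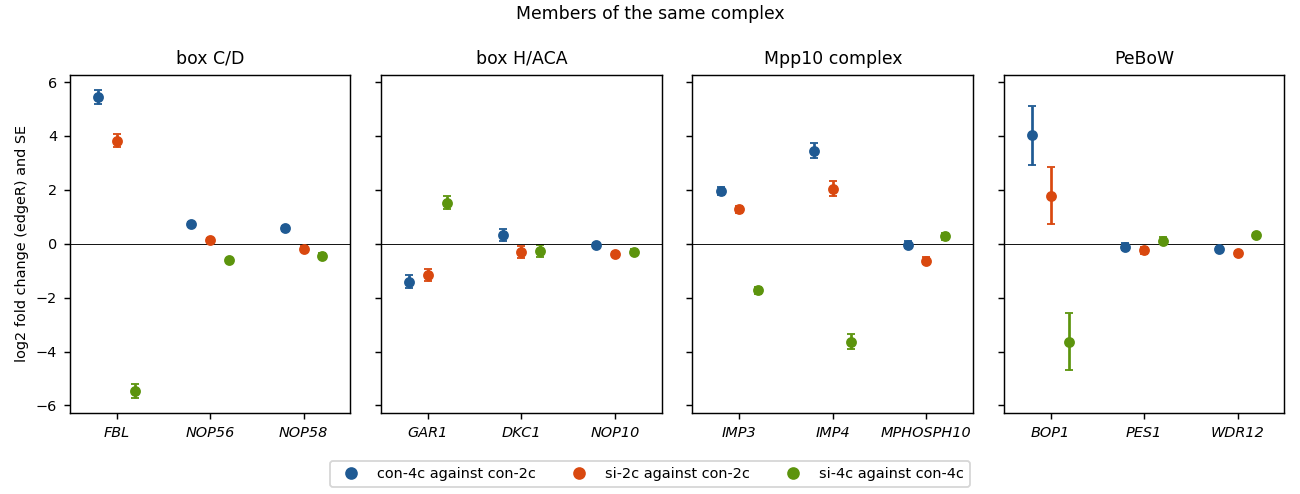
log2 difference with its SE (vertical axis) of the members of 4 complexes (panels), for the control (blue), 2c (orange) and 4c (green) comparisons. FBL, GAR1, IMP3, IMP4 and BOP1 lie away from 0, while their partners NOP56, NOP58, DKC1, NOP10, MPHOSPH10, PES1 and WDR12 stay within 1 of it.

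The si groups were also compared with each other. Between si-4c and si-2c, 2 members were called higher, GAR1 and UTP18, where 1.47% of all genes were, and 7 were called lower, where 11.9% were. The 7 were FBL, EMG1, NOP2, IMP3, IMP4, RRP12 and RRP1. At the adjusted p alone 13 members were higher and 9 lower, beside 12.1% and 16.9% of all genes. RRP1 had no count in si-4c, at least 12.7-fold under si-2c (adjusted p = 0.0482, and 0.0658 to 0.154 in 8 of the 12 fits that left out a library). Its si-2c counts were 0, 9 and 38, so the libraries overlapped, and without si-2c replicate 3 the bound was 3.88-fold. IMP3 fell by 1.04 ± 0.13 (adjusted p = 1.47e-05), and by 0.97 without si-2c replicate 2 and 0.93 without si-4c replicate 3, under the minimum of 1. The median over the members was 0.09 and the mean -0.27, of opposite sign, and with library totals the median was -0.29. EMG1 fell by 3.86 ± 0.14 (adjusted p = 2.71e-12), FBL by 3.84 ± 0.25 (adjusted p = 5.39e-09) and IMP4 by 2.22 ± 0.29 (adjusted p = 1.58e-05). GAR1 rose by 1.29 ± 0.23 (adjusted p = 0.000445) and UTP18 by 1.07 ± 0.11 (adjusted p = 1.15e-06), and both calls were lost with library totals. UTP18 was at 0.99 without si-2c replicate 1.

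The members in si-4c lay near those of con-2c. Of 57, 1 was called higher in si-4c, RRP9, and 0 were called lower, where 0.0333% and 0.3% of all genes were called. At an unadjusted p under 0.05, 9 (15.8%) were higher and 3 (5.26%) lower in edgeR, beside 4.95% and 6.35% of all genes, and DESeq2 called 1 higher and 0 lower. RRP9 rested on 28 counts against 0, and its adjusted p of 0.0481 rose above 0.05 in 11 of the 12 fits that left out a library. The median difference was 0.11, beside 0.00 for all genes. FBL differed by 0.00 ± 0.30, EMG1 by -0.01 ± 0.16, NOP2 by -0.11 ± 0.24, IMP3 by 0.24 ± 0.13, IMP4 by -0.17 ± 0.30 and RRP12 by -0.04 ± 0.44. NOP56 and UTP18 were higher in every si-4c library than in every con-2c library, by 0.12 ± 0.07 (adjusted p = 0.539) and 0.39 ± 0.11 (adjusted p = 0.125). They were among 11 members higher without overlap, beside 3 lower without overlap, and the share over all genes is not given here.

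Members were lower in si-2c than in con-4c more widely than the calls alone show. Of 57, 5 were called lower (FBL, EMG1, NOP2, IMP4 and NOP16), where 1.63% of all genes were, and 0 were called higher, where 0.161% were, with 0 higher at an unadjusted p under 0.05 (8.07% of all genes) and by DESeq2. Without the minimum size, 21 members (36.8%) were lower and 0 higher at an adjusted p below 0.05, beside 5.32% and 2.22% of all genes. For 34 members (59.6%) every si-2c library lay under every con-4c library, beside 16.1% of all genes. The log2 difference was below 0 for 50 members (87.7%), beside 51.4% of all genes, and its median was -0.38 beside -0.02. With library totals, 17 members were lower at that adjusted p, beside 3.45% of all genes, and the median was -0.26 beside 0.11. FBL fell by 1.62 ± 0.20 (adjusted p = 5.94e-05), EMG1 by 1.44 ± 0.12 (adjusted p = 2.12e-06), NOP2 by 1.17 ± 0.22 (adjusted p = 0.00292), IMP4 by 1.41 ± 0.26 (adjusted p = 0.00235) and NOP16 by 1.85 ± 0.16 (adjusted p = 3.61e-06).

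The 21 members covered all 8 roles. They were FBL, NOP56 and NOP58, NOP10, EMG1 and NOP2, NPM1 and NOLC1, NOL11, 6 other SSU processome proteins (UTP3, DCAF13, IMP3, IMP4, MPHOSPH10 and DDX47), TSR1, and 5 60S factors (BRIX1, PPAN, GNL2, NIP7 and NOP16). Genes that differed little between the control groups were among them, such as NOP10 (-0.35 ± 0.08, adjusted p = 0.0111, and 0.0531 with library totals), NPM1 (-0.37 ± 0.08, adjusted p = 0.00579), MPHOSPH10 (-0.61 ± 0.13, adjusted p = 0.00763) and NIP7 (2-fold lower, adjusted p = 0.000771). NIP7, a 60S factor picked out after its values were seen, was at 28.5 ± 1.77 CPM in con-4c and 14.3 ± 3.78 in si-2c. It lay just short of the minimum size, and it was called with DESeq2, RLE scaling, the 10 CPM filter and the replicate block and in 4 of the 12 fits that left out a library. The summed level of the 57 members was 11468 ± 751 CPM (con-2c), 11407 ± 279 (con-4c), 9363 ± 502 (si-2c) and then 11426 ± 252 (si-4c), and NPM1, DDX18, BRIX1 and LTV1 held 57.9% to 67.6% of it. As a share of raw counts it was 1.02%, 1.22%, 1.09% and 1.03%, so the low place of si-2c depended on the scaling.

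The interaction subtracts the difference between the control groups (con-4c minus con-2c) from that between the si groups (si-4c minus si-2c) and uses each library once. It was called higher for 4 members, where 9.87% of all genes were called, and lower for 16, where 22.5% were, shares of 7.02% and 28.1%. The 4 were GAR1, UTP4, UTP18 and DDX52, and at the adjusted p alone 10 were higher and 19 lower, beside 18.2% and 27.3% of all genes. FBL had an interaction of -9.29 ± 0.36 (adjusted p = 1.73e-12), since it was 5.45 higher in con-4c than in con-2c and 3.84 lower in si-4c than in si-2c. EMG1 (-9.13 ± 0.20, adjusted p = 1.79e-15), RRP12 (-5.74 ± 0.58, adjusted p = 4.18e-07) and IMP4 (-5.68 ± 0.41, adjusted p = 5.81e-09) followed among members with counts in every group. For NOP16 (-2.45 ± 0.23, adjusted p = 2.09e-07) the difference between the si groups was -0.11 ± 0.16 (adjusted p = 0.677), so its interaction came mostly from the control groups.

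**Figure D5:**
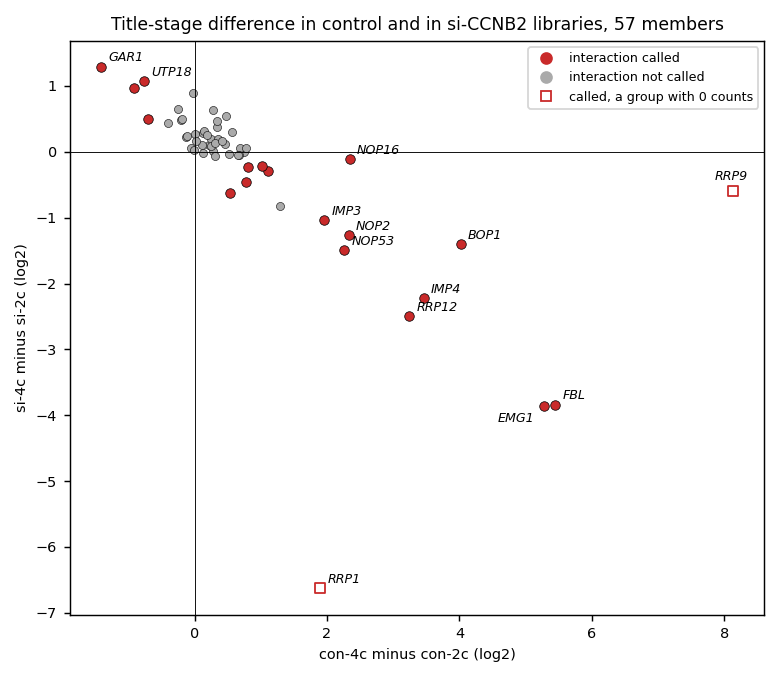
log2 difference between title stages of each member in control libraries (horizontal axis) and in si-CCNB2 libraries (vertical axis); red marks a called interaction, grey one not called, and an open square a called one with a group at 0 counts. FBL, EMG1, IMP4 and RRP12 lie far to the lower right, GAR1 and UTP18 to the upper left, and NOP16 lies near 0 on the vertical axis.

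Other genes of the pathway, from a list of 122 symbols of which 112 were in the table and tested, were set beside the members. In the control comparison 34 were called higher and 3 lower (30.4% and 2.68%, beside 14.4% and 3.25% of all genes), with a median of 0.39. They comprised 4 of 19 genes of RNA polymerase I transcription, 9 of 29 other SSU and 40S factors, 13 of 42 other 60S factors, 3 of 9 proteins of RNase MRP and P, and 5 of 13 snoRNP assembly factors and regulators. In the 2c comparison 19 were called higher and 4 lower, beside 10.7% and 1.8% of all genes, and in the 4c comparison 3 higher and 34 lower, beside 3.12% and 15.8%. At the adjusted p alone, 50 of the 112 were higher and 24 lower in the control comparison, beside 20.7% and 15.1% of all genes. In the 2c comparison 24 were higher and 26 lower, beside 16.6% and 12.3%. In the 4c comparison 24 were higher and 44 lower, beside 15.1% and 21.7%. Against con-4c, 14 were called lower in si-2c and 0 higher (3 higher at an unadjusted p under 0.05, 0 by DESeq2), beside 1.63% and 0.161% of all genes.

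Some of them act in the same steps as members described above and are named after their values were seen. TAF1D, a subunit of the factor that brings RNA polymerase I to the promoter, was at 58.4 ± 7.34 CPM (con-4c), 30.8 ± 2.27 (si-2c) and 11 ± 0.205 (si-4c). SNU13, which binds box C/D snoRNAs with FBL, NOP56 and NOP58, was at 47.2 ± 6.63, 129 ± 8.06, 88.1 ± 2.21 and 45.8 ± 2.28 CPM across con-2c, con-4c, si-2c, then si-4c. RUVBL2, an ATPase that helps assemble those particles, was at 1.43 ± 0.629, 12.8 ± 1.06, 5.03 ± 0.871 and 2.06 ± 0.577 CPM. All 3 were called higher in con-4c than in con-2c, at 2.40 ± 0.12 (adjusted p = 1.15e-10), 1.45 ± 0.10 (adjusted p = 5e-09) and 3.16 ± 0.29 (adjusted p = 1.82e-07). Genes of the same lists did not all follow. TAF1A differed by -0.88 ± 0.09 (adjusted p = 1.26e-06), TAF1B by -0.05 ± 0.08 (adjusted p = 0.729) and RUVBL1 by -0.31 ± 0.16 (adjusted p = 0.145). NUFIP1, NAF1 and SHQ1 were lower in con-4c at an adjusted p below 0.05. The difference was positive for 13 of 19 polymerase I genes and 7 of 13 snoRNP assembly factors and regulators. EIF6, which keeps the 60S subunit from joining the 40S early, was at 19.7 ± 2.91, 143 ± 10.1, 68 ± 13.3 and 18.4 ± 1.25 CPM, and LSG1, a GTPase of the last cytoplasmic step, at 9.99 ± 1.43, 62 ± 2.37, 37.7 ± 3.79 and 11.7 ± 1.12. Both were highest in con-4c and next in si-2c, as FBL and EMG1 were, and both were called higher in con-4c (2.86 ± 0.14, adjusted p = 7.67e-11, and 2.63 ± 0.12, adjusted p = 5.01e-11).

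The transcription factor MYC, likewise named after its values were seen and known to drive many ribosome biogenesis genes, was at 0.151 ± 0.132, 10.2 ± 1.26, 5.47 ± 0.338 and 0.0896 ± 0.155 CPM across con-2c, con-4c, si-2c, then si-4c and rose by 6.03 ± 0.61 in con-4c (adjusted p = 6.18e-07). POLR1C, a subunit shared by RNA polymerases I and III, was, like NOP16, high in con-4c alone, at 4.15 ± 1.14, 13.2 ± 1.97, 4.18 ± 0.8 and 4.3 ± 0.561 CPM, and differed by 0.01 ± 0.22 between si-2c and con-2c (adjusted p = 0.984). The 3 genes called lower in con-4c were UTP23, an SSU processome protein, at 957 ± 32.7, 335 ± 7.64, 475 ± 64.7 and 1062 ± 105 CPM, RPP21, a protein of RNase P, at 378 ± 13.3, 150 ± 5.55, 148 ± 14.9 and 245 ± 16.9 CPM, and RPAP3, a chaperone of snoRNP assembly, at 486 ± 45.2, 228 ± 4, 232 ± 14.7 and 517 ± 1.87 CPM. Like GAR1, these 3 were low in con-4c and si-2c.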

How the data were processed

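Per the labels, reads were trimmed with cutadapt 1.9, aligned with HISAT2 2.2.1 to Sscrofa11.1 and passed to StringTie 2.1.6, and DESeq2 and edgeR are also named in the submitters' processing notes. The authors deposited raw counts per gene. The counting step, annotation release, strand and treatment of multiply mapped reads were not given in the sources used here, so values of genes with near-identical copies, overlapping or antisense genes are uncertain. Reads carried no molecular identifiers, so libraries rather than counts set the precision.

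The test was edgeR 4.0.16 in R 4.3.3 (glmQLFit and glmQLFTest, limma 3.58.1), with 1 model with the 4 group means over all 12 libraries, after filterByExpr and TMM scaling, with Benjamini-Hochberg adjustment over all 17995 genes tested. A gene was called where that adjusted p was below 0.05 and the log2 difference at least 1 in size. SE is the log2 difference divided by the square root of F. CPM is TMM-scaled and was computed from the deposited counts. Levels were not compared between genes, since no lengths were used. Folds against a group at 0 counts used 3 counts over the group. Fits were tested on simulated data.

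The members and gene lists were chosen with earlier results of these data known. Members printed for every library or as group means were, in each role, the 2 with the smallest p in the control comparison and the member with the smallest p among the rest in the 2c and in the 4c comparison, plus members called in a crossed comparison (si-4c with con-2c, si-2c with con-4c) or against the majority, 30 in all. Others are marked as chosen after their values were seen. Symbols were those of the table, and all 57 matched the gene name table by identifier. Coordinates are from RefSeq on Sscrofa11.1. Promoter sequences were not used here. Alternatives were DESeq2 1.42.0, RLE scaling, library totals, no filter, a filter of 10 CPM, no minimum fold, a replicate block and leaving out each library.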

Additional observations from a re-analysis of the deposited data

Results flagged for a closer look

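Members are given here because the effect of si-CCNB2 under the title 4c differed from that under the title 2c by a called interaction (edgeR quasi-likelihood test, 3 libraries per group). Values are log2, title 4c minus title 2c. Among snoRNP proteins and modifying enzymes the interaction was -9.29 for FBL, 2.70 for GAR1, -9.13 for EMG1 and -3.61 for NOP2. NPM3, a chaperone that was called in no comparison between groups, had -1.17 (adjusted p = 8.15e-07), with its levels in si-2c near con-4c and in si-4c near con-2c. Of the t-UTP proteins UTP4 had 1.88 (adjusted p = 5.58e-08). The other SSU processome proteins were UTP3 with -1.40, UTP18 with 1.83, WDR36 with -1.23, IMP3 with -3.00, IMP4 with -5.68, RRP9 with -8.73 and DDX52 with 1.21. DDX52 became 0.56 with library totals and 0.99 with the 10 CPM filter, under the minimum of 1 in both. With library totals UTP4 was at 1.22, UTP18 at 1.17, NPM3 at -1.82, WDR36 at -1.88, TSR1 at -1.70 and PPAN at -1.89. Late 40S factors were TSR1 with -1.04, which was -0.96 without con-2c replicate 3 and -0.99 without si-4c replicate 1, and RRP12 with -5.74. The 60S factors were BOP1 with -5.43, PPAN with -1.25, NOP16 with -2.45, NOP53 with -3.75 and RRP1 with -8.53. The values of RRP9 and RRP1 involve a group with 0 counts and are no bound. NOP53 (adjusted p = 0.0474) passed 0.05 in only 2 of the 12 fits that left out a library, with adjusted p up to 0.132. RRP1 (adjusted p = 0.0236) had 0.0718 without si-2c replicate 3.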

How the results depend on the processing

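None of the results recomputed under the alternatives changed sign with a call. The control, 2c, 4c and si comparisons are con-4c against con-2c, si-2c beside con-2c, si-4c beside con-4c and si-4c beside si-2c. Of 69 calls of members over the 7 comparisons, DESeq2, RLE scaling and no filter on low counts lost 0. In the 4c comparison DESeq2 added UTP3 and RRP9 as lower, and RLE scaling added UTP3. Both added NIP7 as lower in si-2c against con-4c. Library totals, which moved the median of all genes from 0.11 to 0.38 in the control comparison and from 0.12 to 0.52 in the 2c comparison, lost 6. With library totals the count of members was 0 lower in the 2c comparison, 1 higher in the 4c comparison and 0 higher in the si comparison. Over all genes these counts were 58, 231 and 50. The share of member calls that were higher went from 77.8% to 100% in the 2c comparison, beside 85.5% to 98.1% over all genes. In the si comparison it went from 22.2% to 0%, beside 11% to 1.59%. For the other pathway genes library totals gave 0 lower in the 2c comparison, 1 higher in the 4c comparison, 0 higher in the si comparison, 9 lower in si-2c against con-4c and 6 higher in the interaction. The 10 CPM filter left 42 members, with 6 higher and 0 lower in the control comparison, 4 and 1 in the 2c comparison, 1 and 7 in the 4c comparison, 0 and 4 in the si comparison, 0 higher in si-4c against con-2c, and 2 and 9 in the interaction. The shares of all genes under that filter are not given here. Without a minimum fold there were 22 higher and 6 lower in the control comparison (20.7% and 15.1% of all genes), 12 and 11 in the 2c comparison (16.6% and 12.3%), 8 and 22 in the 4c comparison (15.1% and 21.7%), 13 higher in the si comparison (12.1%), 21 lower in si-2c against con-4c (5.32%) and 10 higher in the interaction (18.2%). Replicate numbers did not pair the libraries (correlation of deviations -0.0496 to 0.029 over 18 same-numbered pairs, 3 of 12 libraries best with their own number), and the replicate block gave 0 members higher in si-4c against con-2c, where RRP9 had an adjusted p of 0.113, and 0.0779 for RRP1 in the si comparison. It lost no other call. Leaving out each library gave 1 to 2 members lower in the control comparison (2 without con-2c replicate 3), 1 to 3 higher in the si comparison (1 without si-2c replicate 1, and 3, with UTP4, without si-2c replicate 3, si-4c replicate 1 or si-4c replicate 3), 5 to 7 lower in it and 0 to 1 higher in si-4c against con-2c, and 58 of the 69 calls held in all 12 such fits. Depth limits RRP9, RRP1, BOP1, NOP53 and NOL6, each with at most 48 counts in any library.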
